A study of Mus musculus with 5 samples.

Results

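IgA plasma cells of the mouse spleen were compared by their uptake of 2NBDG, a fluorescent glucose analog. The 523 IgA cells were taken from 4538 splenic cells, and from 5476 cells in all 5 libraries with bone marrow included. A cell was counted as IgA when it held at least 10 unique molecular identifiers (UMIs) of heavy-chain constant genes and at least 70% of them came from Igha. All cells were primary plasma cells, untreated, from unimmunized male C57Bl6/N mice aged 8 to 12 weeks. They had been gated as CD138-high, Ly6g- and CD11c-, sorted by 2 rounds and pooled from 3 mice for each subset. The groups were B220+2NBDG+ with 97 IgA cells, B220+2NBDG- with 77, B220-2NBDG+ with 214 and B220-2NBDG- with 135. Each group was 1 library, so no difference had a replicate check and no p-value is given. Ratios carry exact 95% intervals that cover counting error only. A pooled library also cannot show how far the 3 mice differed.

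Plasma cells are terminally differentiated B cells that secrete antibody. Those that make IgA arise largely in gut-associated tissue, leave it through lymph and blood, and settle in the gut wall, and also in spleen and bone marrow. The integrin chains Itga4 and Itgb7 form a receptor for the gut vessel ligand MAdCAM-1, Ccr9 and Ccr10 guide cells to small intestine and to other mucosal tissue, and Klf2 is a transcription factor that controls trafficking receptors. 2NBDG is taken up by living cells and serves as a stand-in for glucose import. Glucose feeds both the glycosylation of antibodies and energy metabolism in long-lived plasma cells.

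The members were chosen by their Igha and other heavy-chain constant UMIs alone, so these values are given as a description. The IgA share was 8.61% in the B220+2NBDG+ library (95% interval 7.04 to 10.4), against 6.30% in B220+2NBDG- (5.0 to 7.81). It was 23.9% in B220-2NBDG+ (21.2 to 26.9), against 10.4% in B220-2NBDG- (8.81 to 12.2). With a minimum of 90% Igha the B220+2NBDG+ share was 4.09%, below the 5.89% of B220+2NBDG- cells, so the order within the B220+ pair depended on that threshold. In the B220+2NBDG+ library 48 of the 97 IgA cells held 80 to 90% Igha, against 2 of 77 in B220+2NBDG-, 3 of 214 in B220-2NBDG+ and 12 of 135 in B220-2NBDG-. Just inside the threshold, at 70 to 80% Igha, were 3, 3, 1 and 1 cells in the same order. Just outside, at 60 to 70%, were 3, 1, 1 and 2 cells. The remainder of these constant-region UMIs came from other isotypes. Its source, such as free RNA of other cells, was not tested.

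Plasma cell transcripts were abundant. The 11 plasma cell markers summed to 343297 and 121374 CPM (UMI counts scaled to a total of 1000000) in B220+2NBDG+ and B220+2NBDG- IgA cells, and to 378278 and 192769 CPM in B220-2NBDG+ and B220-2NBDG- IgA cells, most of it Jchain. The total behind a CPM is the UMIs of the library's IgA cells outside the immunoglobulin genes, which numbered 488062, 407741, 987797 and 582956 in the same order of libraries. Markers of most other cells were low. The T cell list of 10 genes lay between 13.2 and 68.7 CPM with Cd3e, Trac, Trbc1, Ms4a4b and Thy1 at 0 in all 4 libraries. The macrophage list of 10 lay between 14.2 and 27.0 CPM with Csf1r and Adgre1 at 0, the neutrophil list of 8 at or below 4.10 CPM with S100a8 at 0, the natural killer list of 7 between 20.2 and 68.6 CPM with Ncr1 at 0, and the erythroid list of 7 at or below 3.04 CPM with Alas2 at 0. The stromal list of 7 lay between 22.3 and 36.9 CPM and the megakaryocyte list of 5 at or below 4.10 CPM. The plasmacytoid dendritic cell list of 7 was higher, between 161 and 189 CPM, most of it Tcf4, with Siglech at 0. The B cell list of 10 summed to 661 to 1013 CPM with Pax5 at 0. The gated B220 is a splice form of Ptprc that 3' counts cannot separate.

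In both B220 gates, 2NBDG+ IgA cells held more RNA of Jchain, of several secreted proteins and of immediate early genes, and less of a set of membrane, cytoskeletal and integrin genes. A gene was tested when it had at least 30 UMIs and 50 CPM in the higher library, and it was called when the CPM ratio was at least 2, with counts under 3 UMIs raised to 3. Among 1886 tested genes in the B220+ pair, 52 were higher (2.76%) and 355 lower (18.8%) in 2NBDG+ cells. Among 2240 in the B220- pair, 50 were higher (2.23%) and 347 lower (15.5%). The pairs share no library. Of 1817 genes tested in both, 19 were higher in both (1.05%) and 143 lower in both (7.87%). The plot of one pair against the other shows these genes at its upper right and lower left.

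**Figure D1:**
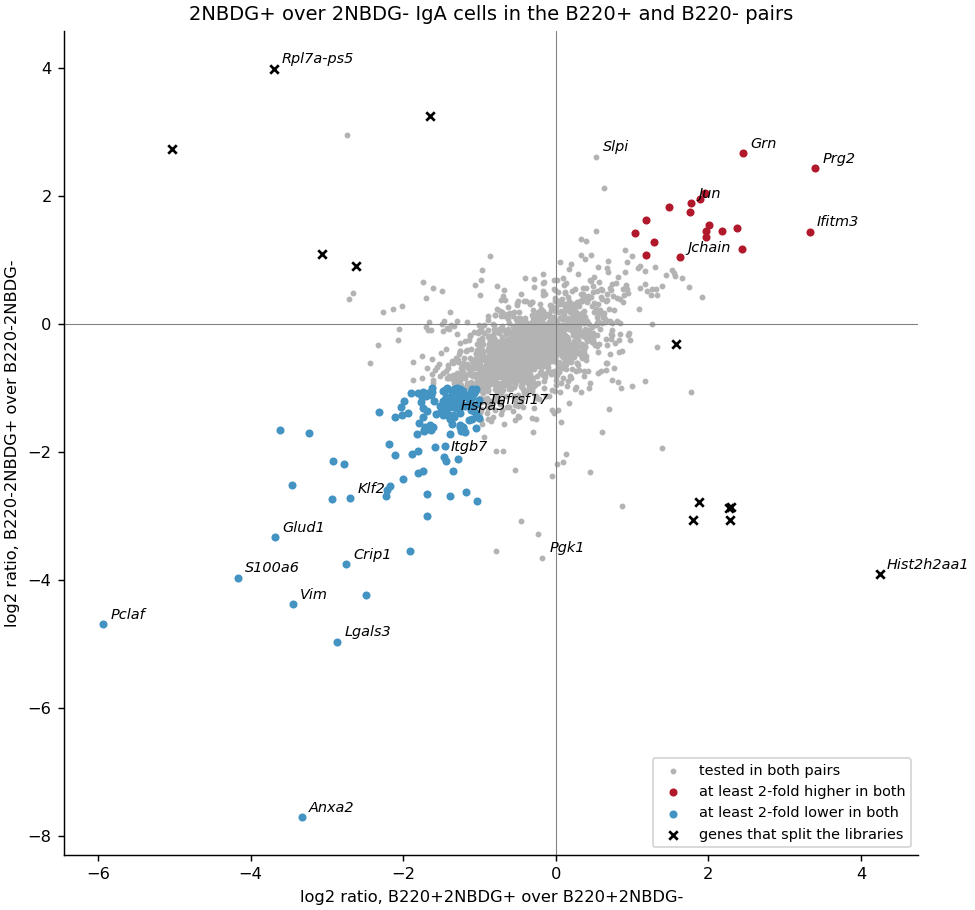
Log2 CPM ratio of each gene tested in both pairs (points), with the ratio of B220+2NBDG+ over B220+2NBDG- IgA cells on the x axis and of B220-2NBDG+ over B220-2NBDG- on the y axis. Red points are the 19 genes at least 2-fold higher in both, blue points the 143 at least 2-fold lower, and crosses are genes that divide the libraries along a line no gate follows; Anxa2 lies lowest at -7.72 in the B220- pair.

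The balance of higher and lower genes depended on the scale. Jchain took 33.0% of the CPM total of B220+2NBDG+ IgA cells against 10.7% in B220+2NBDG-, and 36.8% in B220-2NBDG+ against 17.8% in B220-2NBDG-, and the median tested gene lay at -0.46 and -0.45 log2 in the B220+ and B220- pairs. With Jchain left out of the total, the medians moved to -0.04 and 0.03, and the calls to 129 higher and 163 lower in the B220+ pair and to 183 and 151 in the B220- pair. With trimmed-mean (TMM) factors they were 115 higher and 183 lower, and 123 and 161, and with median-of-ratios factors 107 and 195, and 119 and 162. With all UMIs as the total the split was 11 higher and 1116 lower, and 15 and 260, around medians of -1.29 and -0.65. Values below are on the first scale and are to be read against its medians. Under all 5 scalings, 5 genes were called higher in both pairs (Fos, Jun, Cebpb, Prg2 and Trf) and 31 lower.

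Anxa2, a membrane-binding annexin that forms a complex with S100a10, had the lowest ratio of the B220- pair. It had 53 UMIs (109 CPM) in B220+2NBDG+ IgA cells and 444 UMIs (1089 CPM) in B220+2NBDG- IgA cells, a level 10.0-fold lower (95% interval 7.53 to 13.6). In the B220- pair it had 2 UMIs (2.02 CPM) in 2NBDG+ cells and 372 UMIs (638 CPM) in 2NBDG- cells, a ratio of 315 (86.6 to 2610). With the 2 UMIs raised to 3 the log2 ratio was -7.72. The gene lies on chromosome 9 at 69453620 to 69491795 (GRCm38, plus strand). Its partner S100a10 had 184 CPM in B220+2NBDG+ and 866 CPM in B220+2NBDG- cells, with 95.2 CPM in B220-2NBDG+ and 616 CPM in B220-2NBDG- cells. Both were high in the 2NBDG- library of each gate. A single B220+2NBDG+ cell held 21 of the 53 Anxa2 UMIs, and also 15 of 33 Vim, 149 of 350 Crip1 and 11 of 12 Lgals3 UMIs. Without it Anxa2 was 16.4-fold lower (11.4 to 24.3), Vim 19.8-fold (12.3 to 33.8), Crip1 11.6-fold (9.99 to 13.4) and S100a10 6.13-fold lower (4.72 to 8.07) in the B220+ pair, and this exclusion was chosen after seeing the data. The cell was picked for its Anxa2 UMIs and no 2NBDG- cell was left out. Larger ratios for Anxa2 and the genes that cell also held were therefore set by the choice and are no check.

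Vim, the intermediate filament protein vimentin, on chromosome 2 at 13573927 to 13582826 (plus strand), gave the same picture. It had 67.6 CPM in B220+2NBDG+ and 738 CPM in B220+2NBDG- IgA cells, 10.9-fold lower (7.61 to 16.2). In the B220- pair it had 17.2 CPM in 2NBDG+ and 359 CPM in 2NBDG- cells, 20.8-fold lower (12.7 to 36.4). Crip1, a small LIM-domain protein, had 717 CPM in B220+2NBDG+ and 4819 CPM in B220+2NBDG- cells, with 398 CPM in B220-2NBDG+ and 5383 CPM in B220-2NBDG- cells. That is 6.72-fold lower (5.99 to 7.55) and 13.5-fold lower (12.2 to 15.1).

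Other genes were called lower in both pairs as well. Tmsb4x, which binds actin monomers, had 977 CPM in B220+2NBDG+ against 4513 CPM in B220+2NBDG- cells, with 523 CPM in B220-2NBDG+ against 3148 CPM in B220-2NBDG- cells. Tagln2, an actin-bundling protein, was 7.64-fold lower (5.44 to 11) in the B220+ pair and 6.66-fold lower (4.72 to 9.58) in the B220- pair. Lgals3, which encodes galectin-3, was 7.28-fold (3.93 to 14.7) and 31.3-fold lower (11.7 to 118), with 1 UMI left in B220+2NBDG+ without the single high cell. S100a6 rested on 3 UMIs in B220+2NBDG+ and 45 in B220+2NBDG- cells, and on 4 UMIs in B220-2NBDG+ and 37 in B220-2NBDG- cells. Of the genes named so far as lower, all but S100a6 were called in both pairs under all 5 scalings.

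A list of 26 membrane, cytoskeletal and migration genes built around Anxa2 and Vim held 17 tested genes in the B220+ pair, of which 12 were lower and none higher. In the B220- pair 16 of 18 were lower and none higher, and 12 were lower in both. Among all tested genes 18.8% were lower in the B220+ pair and 15.5% in the B220- pair, and 7.87% of those tested in both were lower in both. Of the tested genes, 2 in the B220+ pair and 6 in the B220- pair passed the minimum through the 2NBDG- library alone. Over all 26 genes the sum was 3481 CPM in B220+2NBDG+ and 13984 CPM in B220+2NBDG- cells, with 2334 CPM in B220-2NBDG+ and 12536 CPM in B220-2NBDG- cells. The list was chosen with these genes' values known and is no independent evidence of the direction. Its members that were tested but not called in the B220+ pair include Emp3 at -0.46, Lgals1 at -0.96 and Rasgrp2 at -0.02 log2, the last of which turns positive without Jchain in the total.

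**Figure D2:**
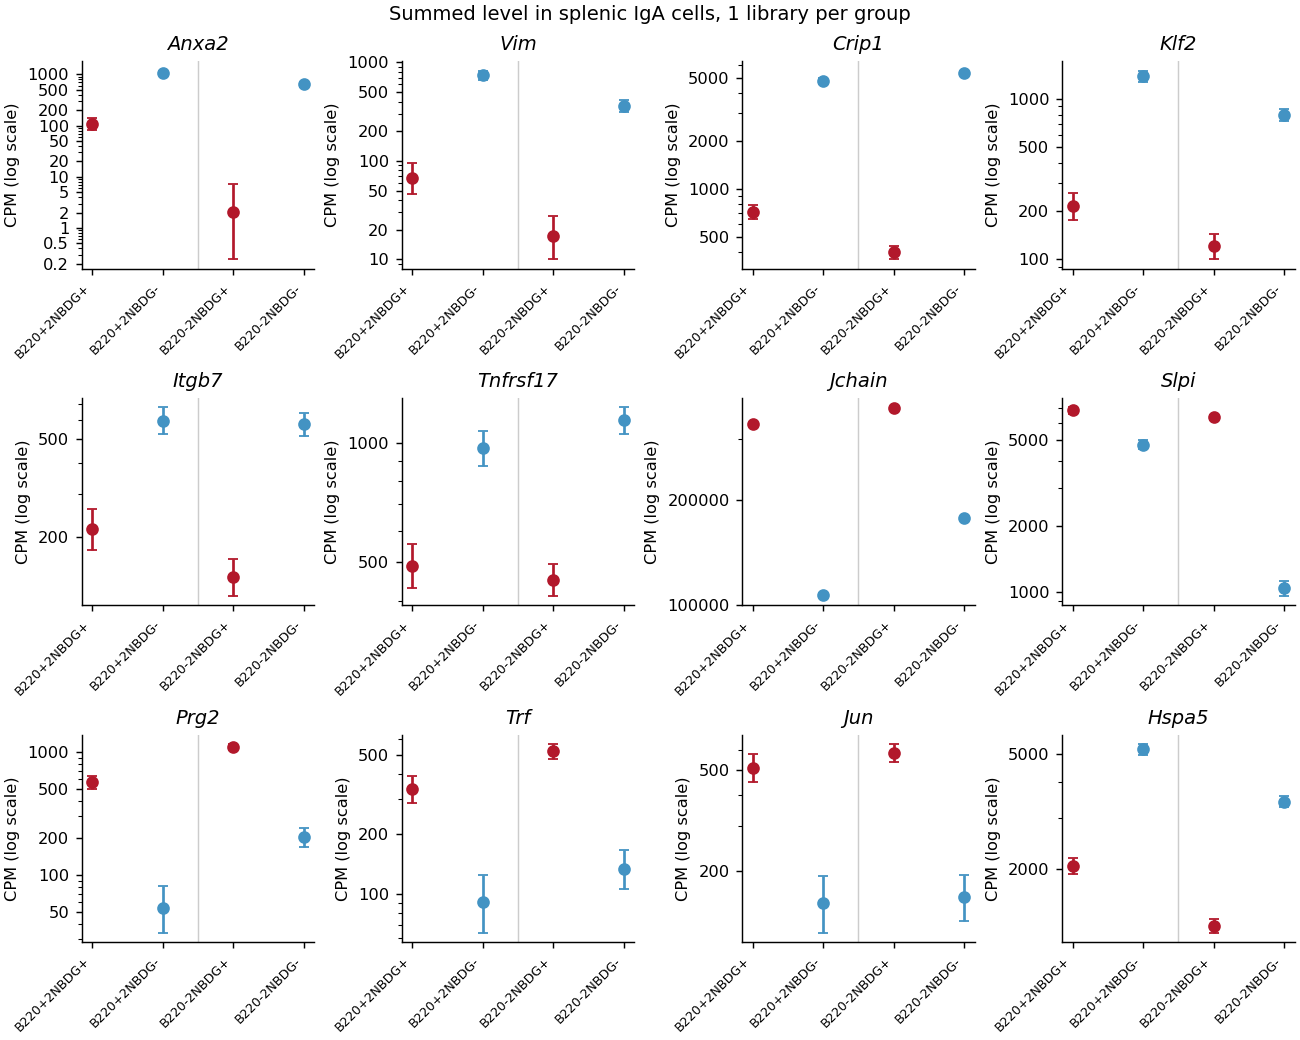
Summed CPM of 12 genes in the IgA cells of the 4 splenic libraries, on log axes, with 2NBDG+ libraries in red and 2NBDG- libraries in blue. Points are 1 library each and bars are exact 95% Poisson intervals of the counts; for Anxa2, Vim, Crip1, Klf2 and Itgb7 both red points lie below both blue points, and for Jchain, Prg2, Trf and Jun both lie above.

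The lower sums came with fewer cells that held the transcripts. To compare libraries of unequal depth, each cell was thinned to 1000 non-immunoglobulin UMIs, which left out 1, 2, 0 and 2 shallower cells. These UMIs include Jchain, at 33.0% in B220+2NBDG+ against 10.7% in B220+2NBDG-, and 36.8% in B220-2NBDG+ against 17.8% in B220-2NBDG-. Thinned 2NBDG+ cells therefore kept fewer UMIs of other genes, and the effect of this on the shares was not tested. Anxa2 was then seen in 4.17% of B220+2NBDG+ cells (1.15 to 10.3) against 44.0% of B220+2NBDG- cells (32.5 to 55.9). It was seen in 0 of 214 B220-2NBDG+ cells, which at 3 counts allows a share of cells with a UMI of up to 1.40%, against 29.3% of B220-2NBDG- cells (21.8 to 37.8). Before thinning the shares were 9.28% and 63.6%, and 0.935% and 47.4%. In IgM cells of the same libraries the thinned shares were 0.685% and 1.13% in the B220+ pair, and 0 of 557 and 0.467% in the B220- pair, at median depths of 4771, 4360.5, 4293 and 3607.5 UMIs against 5037, 4409, 4672.5 and 4388 in IgA cells. Vim was seen in 5.21% of B220+2NBDG+ against 36.0% of B220+2NBDG- IgA cells, and in 2.34% of B220-2NBDG+ against 22.6% of B220-2NBDG- IgA cells. In IgM cells the Vim shares were 1.60% and 3.82% in the B220+ pair, and 0.539% and 1.40% in the B220- pair.

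Within the 2NBDG- libraries the genes of this set were found in the same cells. In B220+2NBDG- the 49 IgA cells with an Anxa2 UMI had 1004 CPM of Vim, 6323 CPM of Crip1 and 1826 CPM of Klf2. The 28 cells without one had 100 CPM of Vim, 1202 CPM of Crip1 and 342 CPM of Klf2. In B220-2NBDG- the 64 cells with an Anxa2 UMI had 561 CPM of Vim and 8283 CPM of Crip1, and the 71 without had 139 and 2243 CPM. Jchain ran the other way, at 80074 CPM in the cells with and 172033 CPM in the cells without an Anxa2 UMI in B220+2NBDG-, and at 113698 and 247223 CPM in B220-2NBDG-. The cells without an Anxa2 UMI in the 2NBDG- libraries still had more Crip1 than the 2NBDG+ libraries as a whole. These cells were split by a measured transcript, so the values are a description with no test. The 9 cells with an Anxa2 UMI among the 97 of B220+2NBDG+ had 4962 CPM of Crip1, against 314 CPM in the other 88 cells. Without the single high cell the other 8 had 1692 CPM.

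**Figure D3:**
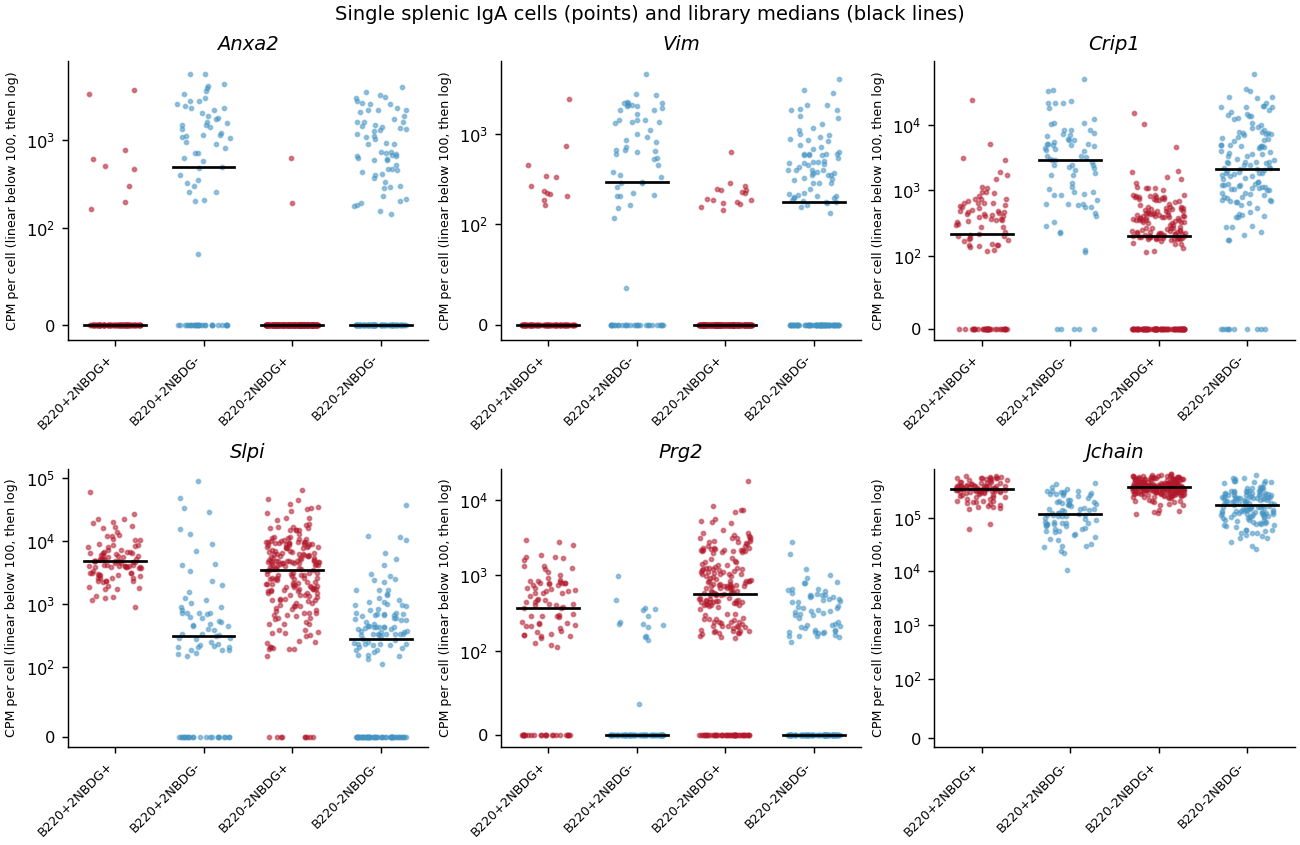
CPM of 6 genes in single IgA cells (points) by library, linear below 100 CPM and logarithmic above, with the library median as a black line; red is 2NBDG+ and blue 2NBDG-. Cells of 1 library are not replicates; most 2NBDG+ cells sit at 0 for Anxa2 and Vim, and the Slpi medians are 4747 and 3499 CPM in 2NBDG+ libraries against 311 and 276 CPM in 2NBDG- libraries.

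Genes of homing followed in part. Klf2 had 215 CPM in B220+2NBDG+ and 1391 CPM in B220+2NBDG- IgA cells, 6.46-fold lower (5.24 to 8.04), and 120 CPM in B220-2NBDG+ and 796 CPM in B220-2NBDG- cells, 6.61-fold lower (5.39 to 8.15). Itgb7 had 215 CPM in B220+2NBDG+ and 596 CPM in B220+2NBDG- cells, with 137 CPM in B220-2NBDG+ and 576 CPM in B220-2NBDG- cells. It was 2.77-fold (2.19 to 3.52) and 4.22-fold lower (3.44 to 5.19), and like Klf2 it was called under all 5 scalings. Its partner Itga4 was 3.20-fold lower (2.17 to 4.81) in the B220+ pair and 2.12-fold lower (1.55 to 2.90) in the B220- pair, and the call in the B220- pair was lost without Jchain in the total, at -0.70 log2. S1pr4, a receptor for the lipid sphingosine-1-phosphate, was 4.52-fold (2.66 to 8.08) and 5.78-fold lower (3.32 to 10.6). Cd69, which removes another such receptor from the surface, was 3.50-fold (1.82 to 7.16) and 3.98-fold lower (2.40 to 6.79).

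No chemokine receptor of the homing list was called on the first scale. Ccr10 had 465 CPM in B220+2NBDG+ and 255 CPM in B220+2NBDG- cells, but 330 CPM in B220-2NBDG+ and 444 CPM in B220-2NBDG- cells. On that scale it was under 2-fold in each pair and opposite in direction, at 0.87 and -0.43 log2. Leaving Jchain out of the total raised ratios by 0.42 log2 in the B220+ pair and 0.38 in the B220- pair. That took Ccr10 past 2-fold in the B220+ pair and left it near no difference in the B220- pair. Ccr9 had 4 and 17 UMIs in B220+2NBDG+ and B220+2NBDG- cells and 43 and 20 UMIs in B220-2NBDG+ and B220-2NBDG- cells, below the minimum for a call in both pairs. Cxcr4, which holds plasma cells in bone marrow, had 1 to 3 UMIs in each library. Of the 18 homing receptors listed, 3 of 6 tested were lower in the B220+ pair and 3 of 7 in the B220- pair on the first scale. All of them were Itga4, Itgb7 and Cd69, with none higher, beside 18.8% and 15.5% of all tested genes lower. In each pair 1 of the tested receptors passed the minimum through the 2NBDG- library alone.

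RNA of cell division genes was lower in 2NBDG+ cells, most in the B220+ pair. The 40 genes of the cell cycle list summed to 779 CPM in B220+2NBDG+ and 5099 CPM in B220+2NBDG- cells, with 733 CPM in B220-2NBDG+ and 1631 CPM in B220-2NBDG- cells. In the B220+ pair 21 passed the minimum, 18 of them through B220+2NBDG- alone, so that their direction was set by the filter, and 19 were not tested. In the B220- pair 6 passed, 3 of them through B220-2NBDG- alone. Pclaf, a partner of the replication clamp, had 2 UMIs in B220+2NBDG+ and 153 in B220+2NBDG- cells, a ratio of 91.6 (24.9 to 763). In the B220- pair it had 0 UMIs in 2NBDG+ cells and 46 in 2NBDG- cells, at least 26.0-fold lower with the 0 raised to 3 UMIs. Mki67, the proliferation antigen Ki-67, had 2 and 30 UMIs in the B220+ pair and 4 and 15 in the B220- pair. No IgA cell of B220+2NBDG+ was called cycling (0 of 97, which at 3 counts allows up to 3.09%), against 10 of 77 in B220+2NBDG- (13.0%, 6.41 to 22.6). In B220-2NBDG+ it was 0 of 214 (up to 1.40%), against 5 of 135 in B220-2NBDG- (3.70%, 1.21 to 8.43). Anxa2, Vim, Crip1 and Itgb7 were called lower in both pairs without the cycling cells too.

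Several genes of secreted proteins were higher in both pairs. Prg2, known as a granule protein of eosinophils, on chromosome 2 at 84980461 to 84983632 (plus strand), had 570 CPM in B220+2NBDG+ and 54.0 CPM in B220+2NBDG- IgA cells, 10.6-fold higher (6.83 to 17.1). It had 1097 CPM in B220-2NBDG+ and 202 CPM in B220-2NBDG- cells, 5.42-fold higher (4.48 to 6.61). After thinning, 33.3% of B220+2NBDG+ against 5.33% of B220+2NBDG- cells held a Prg2 UMI, and 44.9% of B220-2NBDG+ against 18.8% of B220-2NBDG- cells. In IgM cells of these libraries the thinned Prg2 shares were 47.3% and 21.1% in the B220+ pair, and 63.9% and 63.4% in the B220- pair. Trf, the iron carrier transferrin, had 336 CPM in B220+2NBDG+ and 90.7 CPM in B220+2NBDG- cells, with 519 CPM in B220-2NBDG+ and 134 CPM in B220-2NBDG- cells. Grn, the lysosomal and secreted progranulin, was 5.48-fold (2.70 to 12.6) and 6.36-fold higher (3.60 to 12.2).

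Jchain, the joining chain of polymeric IgA and IgM, had 330411 CPM in B220+2NBDG+ and 107083 CPM in B220+2NBDG- cells, with 367552 CPM in B220-2NBDG+ and 177816 CPM in B220-2NBDG- cells. It was 3.09-fold and 2.07-fold higher, and with all UMIs as the total it lay under 2-fold at 0.86 and 0.90 log2. Median Igha UMIs per cell were 1751 in B220+2NBDG+ against 704 in B220+2NBDG-, and 1751 in B220-2NBDG+ against 805 in B220-2NBDG-. Immunoglobulin genes took 62.9% of the UMIs of B220+2NBDG+ IgA cells against 37.0% in B220+2NBDG-, and 56.9% in B220-2NBDG+ against 52.3% in B220-2NBDG-.

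Slpi, a secreted protease inhibitor of mucosal surfaces, on chromosome 2 at 164354070 to 164389095 (minus strand), shows how a few cells can carry a sum. Its summed level was 6837 CPM in B220+2NBDG+ and 4758 CPM in B220+2NBDG- IgA cells, 1.44-fold higher (1.36 to 1.52), and 6347 CPM in B220-2NBDG+ and 1034 CPM in B220-2NBDG- cells, 6.14-fold higher (5.64 to 6.68). In B220+2NBDG- a single cell held 768 of the 1940 Slpi UMIs, and without it the level was 2937 CPM, still far above the median cell at 311 CPM. The median cell had 26 UMIs in B220+2NBDG+ and 2 in B220+2NBDG-, and 13.5 in B220-2NBDG+ and 1 in B220-2NBDG-. Slpi was seen in 97 of 97 and 55 of 77 cells of the B220+ pair, and in 205 of 214 and 87 of 135 cells of the B220- pair. Scaled to all UMIs the summed B220+ ratio turned to -0.24 log2.

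Immediate early genes, which are switched on within minutes of a stimulus or of cell handling, were higher in both pairs. Of 7 tested in the B220+ pair, 4 were higher and none lower (median 1.19 log2), and of 8 in the B220- pair 4 were higher and none lower (median 0.76). Among all tested genes 2.76% and 2.23% were higher, at medians of -0.46 and -0.45 log2. The 4 were Fos, Jun, Junb and Ier2 in each pair. Jun had 510 CPM in B220+2NBDG+ and 150 CPM in B220+2NBDG- cells, 3.41-fold higher (2.57 to 4.59), and 583 CPM in B220-2NBDG+ and 158 CPM in B220-2NBDG- cells, 3.69-fold higher (2.96 to 4.66). Fos was 3.92-fold (2.68 to 5.90) and 2.57-fold higher (1.97 to 3.41). Jund, of the same family, lay at -0.19 and -0.48 log2, close to the median gene.

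Other genes higher in both pairs were of several kinds. Cebpb, a transcription factor of stress and inflammation, was 5.16-fold (2.71 to 10.8) and 2.84-fold higher (1.85 to 4.51). Ly6a, the surface protein Sca-1, had 871 CPM in B220+2NBDG+ and 383 CPM in B220+2NBDG- cells, with 1113 CPM in B220-2NBDG+ and 360 CPM in B220-2NBDG- cells. The membrane proteins Tmem176a and Tmem176b were 2.05-fold (1.63 to 2.61) and 2.45-fold higher (1.93 to 3.14) in the B220+ pair, and 2.69-fold (2.29 to 3.17) and 2.44-fold higher (2.11 to 2.84) in the B220- pair. Ifitm3, an interferon-induced membrane protein, rested on 36 and 2 UMIs in B220+2NBDG+ and B220+2NBDG- cells, a ratio of 15 (3.87 to 129), and was 2.73-fold higher (1.69 to 4.60) in the B220- pair. The rest were the protease inhibitors Serpina3g and Cst6, the purine enzyme Adssl1, the fatty acid hydroxylase Cyp4f18, Oosp1 and the noncoding Kcnmb4os2, at 2.26-fold to 5.43-fold.

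Several chaperones of the endoplasmic reticulum (ER), where antibodies are folded, were lower on the first scale while Jchain was higher. Hspa5, the main ER chaperone BiP, had 2047 CPM in B220+2NBDG+ and 5190 CPM in B220+2NBDG- IgA cells, 2.54-fold lower (2.35 to 2.74), and 1275 CPM in B220-2NBDG+ and 3419 CPM in B220-2NBDG- cells, 2.68-fold lower (2.50 to 2.88). Hsp90b1, the chaperone GRP94, was 2.1-fold (1.99 to 2.23) and 2.58-fold lower (2.45 to 2.72). Calr, the lectin chaperone calreticulin, was 2.33-fold (2.03 to 2.68) and 3.08-fold lower (2.73 to 3.49). Pdia3, its disulfide isomerase partner, was 2.28-fold (1.96 to 2.66) and 2.42-fold lower (2.11 to 2.77). None of these 4 was called in both pairs without Jchain in the total or with TMM factors, and with median-of-ratios factors only Hspa5 was. Of 25 tested genes of the ER folding list, 5 were lower in the B220+ pair (close to the 18.8% of all genes) and 9 in the B220- pair (beside 15.5% of all genes), with none higher. The list medians were -0.32 and -0.73 log2 beside -0.46 and -0.45 for all genes, so the list as a whole lay on opposite sides of the median gene in the B220+ and B220- pairs. Without Jchain in the total the B220+ median turned to 0.10, the B220- median was -0.35, and Hspa5 lay at -0.93 and -1.04.

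The promoters of several of these genes hold the ER stress element, made of CCAAT, 9 bases of any kind and CCACG, which is bound under ER stress. RefSeq promoters (GRCm38.p6, 250 bases before to 50 after the start) were found for 22 of the 26 listed genes, and 9 of these held the element on either strand, against 0.119% of all 32851 promoters. Neither of the related lists, ER translocation with 20 promoters and glycosylation with 24, held it in any. The 9 were Hspa5, Hsp90b1, Calr, Canx, Pdia6, Derl3, Creld2, Dnajc3 and Syvn1. The first 3 are shown because they were lower in both pairs on the first scale, as the 250 bases before the start, 5′ to 3′ along the gene, with the element in capitals (in Calr, and at the second place in Hsp90b1, it reads on the opposite strand).
Hspa5 promoter, chr2:34771840-34772089, plus strand: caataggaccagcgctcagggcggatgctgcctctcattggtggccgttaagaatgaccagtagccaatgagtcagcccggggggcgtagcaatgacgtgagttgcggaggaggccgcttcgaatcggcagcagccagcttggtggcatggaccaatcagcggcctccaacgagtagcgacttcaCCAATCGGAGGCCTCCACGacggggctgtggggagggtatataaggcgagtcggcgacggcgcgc
Hsp90b1 promoter, chr10:86705445-86705694, minus strand: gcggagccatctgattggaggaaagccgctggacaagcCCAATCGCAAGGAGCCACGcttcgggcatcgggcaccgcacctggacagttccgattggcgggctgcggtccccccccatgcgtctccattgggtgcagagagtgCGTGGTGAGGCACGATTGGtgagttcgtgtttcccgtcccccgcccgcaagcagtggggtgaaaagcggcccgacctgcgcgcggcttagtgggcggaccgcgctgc
Calr promoter, chr8:84846932-84847181, minus strand: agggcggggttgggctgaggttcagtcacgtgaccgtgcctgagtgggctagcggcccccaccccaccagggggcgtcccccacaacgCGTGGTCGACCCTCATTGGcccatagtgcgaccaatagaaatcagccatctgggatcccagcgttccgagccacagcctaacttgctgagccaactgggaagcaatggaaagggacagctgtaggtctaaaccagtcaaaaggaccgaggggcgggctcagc
The element begins 65 bases before the start in Hspa5, 162 in Calr, and 212 and 107 in Hsp90b1. Genes that hold it did not all move alike. Canx was 2.21-fold lower (1.65 to 2.98) in the B220+ pair and 1.95-fold lower (1.54 to 2.47) in the B220- pair, and Pdia6 was 1.84-fold (1.64 to 2.06) and 2.32-fold lower (2.1 to 2.57). Derl3, an ER-associated degradation protein, lay at -0.29 and -0.38 log2, and Syvn1, an ER ubiquitin ligase, at -0.67 and 0.13. Pdia3, which was lower in both, does not hold these letters in this window.

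No tested gene that handles glucose was called higher in cells that had taken up 2NBDG. The glucose transporter Slc2a1 had 7 UMIs in both B220+2NBDG+ and B220+2NBDG- cells and 3 and 2 UMIs in B220-2NBDG+ and B220-2NBDG- cells. The hexokinases, which trap glucose and 2NBDG in the cell, were as scarce, with Hk1 at 6 and 11 UMIs and 10 and 14 UMIs, and Hk2 at 3 and 2 UMIs and 7 and 8 UMIs. A change in these was not detectable at this depth. Of 27 listed genes of glucose uptake, glycolysis and the pentose phosphate pathway, 12 were tested in each pair, with 5 lower in the B220+ pair, 4 lower in the B220- pair and none higher, beside 18.8% and 15.5% of all tested genes lower and 2.76% and 2.23% higher. Of the 12, 1 in the B220+ pair and 2 in the B220- pair passed the minimum through the 2NBDG- library alone. Their direction was set by the filter. In the B220- pair these were Eno1 and Pgk1, both among the 4 lower genes. The list medians were -0.81 and -0.67 log2, and without Jchain in the total -0.39 and -0.14, beside -0.04 and 0.03 for all genes.

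Eno1 and Ldha were lower in both pairs. Eno1, the enolase, had 92.2 CPM in B220+2NBDG+ and 277 CPM in B220+2NBDG- cells, 3.01-fold lower (2.11 to 4.35), and 43.5 CPM in B220-2NBDG+ and 165 CPM in B220-2NBDG- cells, 3.78-fold lower (2.61 to 5.55), and was called under all 5 scalings. Eno1, Ldha and Gapdh have near-identical copies in the genome that can take or lose their reads, so their levels are uncertain. Ldha, which turns pyruvate into lactate, was 2.12-fold (1.45 to 3.14) and 2.06-fold lower (1.5 to 2.84). Without cycling cells its B220+ ratio was -0.41 log2. Gapdh was 2.66-fold (2.16 to 3.28) and 1.80-fold lower (1.54 to 2.1). Pgk1, a kinase of lower glycolysis, was 12.6-fold lower (7.17 to 23.8) in the B220- pair at 14 and 104 UMIs, but had 35 and 33 UMIs in B220+2NBDG+ and B220+2NBDG- cells, a ratio whose sign depended on the scaling.

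Genes of mitochondrial metabolism were mixed. Of the pyruvate entry and citric acid cycle genes, 2 of 12 tested were lower in the B220+ pair (Idh3g and Sdhd) and 3 of 13 in the B220- pair (Mpc1, Sdhd and Sucla2), none higher, which is close to the 18.8% and 15.5% lower among all tested genes. Of these tested genes, 2 in the B220+ pair and 3 in the B220- pair passed the minimum through the 2NBDG- library alone, which set their direction. The list medians were -0.74 and -0.51, beside -0.81 and -0.67 for the glycolysis list, and the difference between the lists was not tested. The 12 tested mitochondrially encoded genes had medians of 0.07 and 0.01, above the median gene, and the only call among them was mt-Atp8, higher in the B220+ pair and lower in the B220- pair, which divides the libraries as described below. Glud1, the mitochondrial glutamate dehydrogenase, had one of the lowest ratios among the genes called lower in both pairs. It had 10 and 107 UMIs in B220+2NBDG+ and B220+2NBDG- cells, 12.8-fold lower (6.70 to 27.5), and 16 and 95 UMIs in B220-2NBDG+ and B220-2NBDG- cells, 10.1-fold lower (5.89 to 18.3). Slc3a2, the heavy chain of amino acid transporters, was 2.48-fold higher (2.07 to 2.99) in the B220+ pair and 1.47-fold higher (1.29 to 1.68) in the B220- pair. In the list of amino acid supply and integrated stress response, all 10 tested genes lay above 0 in the B220- pair (median 0.41), and 5 of 10 in the B220+ pair (median -0.05). The medians of all tested genes were -0.45 in the B220- pair and -0.46 in the B220+ pair, so the list lay above the median gene in both.

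Survival and identity genes differed in detail. Tnfrsf17, the survival receptor BCMA, had 490 CPM in B220+2NBDG+ and 966 CPM in B220+2NBDG- cells, 1.97-fold lower (1.68 to 2.33), and 452 CPM in B220-2NBDG+ and 1137 CPM in B220-2NBDG- cells, 2.52-fold lower (2.23 to 2.85). Scaled without Jchain the B220- ratio lay just under 2-fold, at -0.95 log2. Bcl2, an inhibitor of cell death, was 1.99-fold (1.01 to 4.15) and 2.1-fold higher (1.34 to 3.42), and its antagonist Bcl2l11 (BIM) was 6.78-fold lower (2.82 to 19.8) in the B220+ pair with 8 and 7 UMIs in B220-2NBDG+ and B220-2NBDG- cells. Without cycling cells the Bcl2l11 ratio was -1.25 log2. Sdc1, the sorted CD138, had 525 CPM in B220+2NBDG+ and 319 CPM in B220+2NBDG- cells, with 548 CPM in B220-2NBDG+ and 379 CPM in B220-2NBDG- cells. That was under 2-fold in both pairs on the first scale, and the B220+ ratio depended on the scale. With all UMIs as the total it was -0.04 log2, and without Jchain in the total it passed 2-fold. Irf4 lay at -0.89 and -0.76 log2 and Xbp1 at 0.62 and 0.12. On the first scale, of 15 tested plasma cell identity genes in the B220- pair only Jchain was higher and only Tnfrsf17 lower. Of 14 in the B220+ pair only Jchain was called on that scale. Leaving Jchain out of the total raised ratios of the B220+ pair by 0.42 log2, which took Sdc1 and Xbp1 past 2-fold there. The shares of all tested genes were 2.23% higher and 15.5% lower in the B220- pair, and 2.76% and 18.8% in the B220+ pair.

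**Figure D4:**
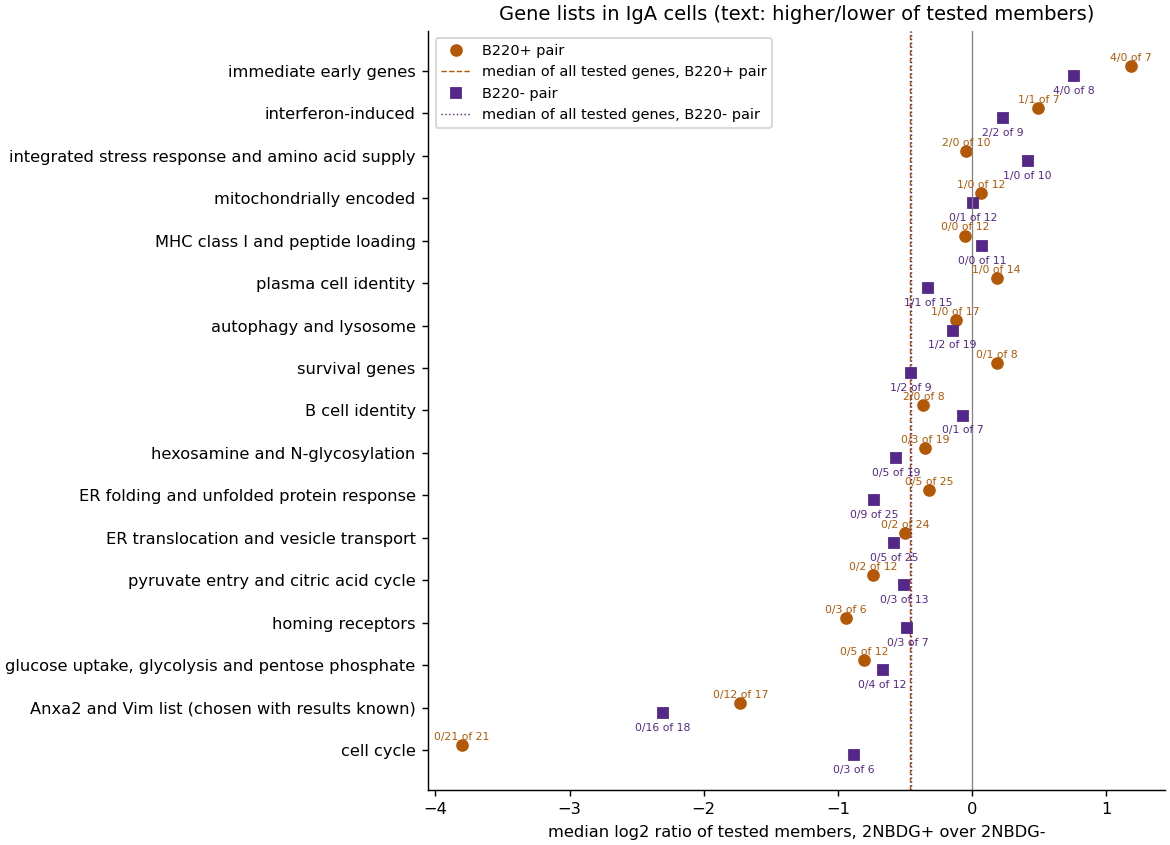
Median log2 CPM ratio of the tested members of each gene list (2NBDG+ over 2NBDG-) in the B220+ pair (circles) and the B220- pair (squares), with the medians of all tested genes as vertical lines at -0.46 and -0.45. Labels give the members higher, lower and tested; lists with under 5 tested members in either pair are left out, the Anxa2 and Vim list was chosen with its values known, and 18 of the 21 cell cycle genes of the B220+ pair were tested through B220+2NBDG- alone.

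Calls among antigen presentation and interferon genes were few and went in no common direction. None of 12 and 11 tested MHC class I genes was called in the B220+ and B220- pairs. Among all tested genes 2.76% and 2.23% were higher and 18.8% and 15.5% lower. The class I medians were -0.05 and 0.08 log2, above the -0.46 and -0.45 of all tested genes. Those of MHC class II, with 5 and 4 tested, were below them at -0.66 and -0.84. Among MHC class II genes only H2-Aa was called, 3.97-fold lower (2.73 to 5.87) in the B220- pair at 41 and 96 UMIs. The interferon list had medians of 0.49 and 0.23 log2, also above those of all tested genes. Of its 7 tested genes in the B220+ pair 1 was higher and 1 lower, and of 9 in the B220- pair 2 and 2. Ifitm3 was higher and Ifi27l2a lower in both pairs, the second by 2.26-fold (1.87 to 2.73) and 6.17-fold (5.11 to 7.5). Ifi27 was called higher in the B220- pair alone. Isg15 was 5.99-fold lower (3.32 to 11.4) in the B220- pair alone by this rule, with 11 and 10 UMIs in B220+2NBDG+ and B220+2NBDG- cells, a difference between pairs that was not tested. Mt2, a metal-binding metallothionein, was 2.64-fold higher (1.54 to 4.76) in the B220- pair and had 11 and 9 UMIs in the B220+ pair.

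Most genes called in both pairs of IgA cells had the same direction in the other isotypes of the same libraries, at ratios that were smaller in the median. There were 441 and 710 IgM cells and 552 and 418 IgG cells in the B220+ pair, and 558 and 1080 IgM cells and 117 and 74 IgG cells in the B220- pair. Of the 19 genes higher in both pairs of IgA cells, 17 were above 0 in IgM cells of the B220+ pair and 12 in the B220- pair, and 16 and 14 in IgG cells. Of the 143 lower genes, 130 and 99 were below 0 in IgM cells of the B220+ and B220- pairs, and 122 and 111 in IgG cells. These counts are to be read against the median of all tested genes. It was -0.19 and -0.001 log2 in IgM cells of the B220+ and B220- pairs, and -0.17 and -0.07 in IgG cells. By the rule used for IgA cells, 6 of the 18 tested higher genes were called higher in IgM cells of the B220+ pair (beside 1.36% of all tested genes) and 2 of 18 in the B220- pair (1.06%), and in IgG cells 6 of 17 (1.59%) and 3 of 18 (2.69%). Of the lower genes, 22 of 120 tested were called lower in IgM cells of the B220+ pair (5.12% of all tested genes) and 3 of 91 in the B220- pair (1.85%), and in IgG cells 26 of 123 (5.98%) and 12 of 82 (2.85%). The median log2 ratio of the lower genes was -0.61 and -0.17 in IgM and -0.57 and -0.39 in IgG cells, against -1.44 and -1.38 in IgA cells. Single genes went the other way, such as Cst6, at 4.29-fold (2.68 to 7.15) and 7.93-fold higher (1.98 to 69.0) in IgG cells against 3.90-fold and 2.74-fold in IgA cells. Because the genes were picked for large ratios in IgA cells, smaller ratios elsewhere follow in part from the choice, and the difference between isotypes was not tested.

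Single genes varied in how far the isotypes differed. Anxa2 had 6.82 CPM in B220+2NBDG+ and 19.6 CPM in B220+2NBDG- IgM cells, and 0.412 CPM in B220-2NBDG+ and 6.73 CPM in B220-2NBDG- IgM cells, all below its level in 2NBDG- IgA cells. Its ratio was lower in IgM cells too, 2.88-fold (1.64 to 5.41) in the B220+ pair. In the B220- pair it was 16.3-fold lower (2.70 to 668) at 1 and 28 UMIs. IgG cells had Anxa2 at -0.80 and -1.07 log2, the second on 3 and 4 UMIs. Klf2 lay at 0.50 and -0.41 log2 in IgM cells and at -0.12 and -0.38 in IgG cells, against -2.69 and -2.72 in IgA cells. Crip1 lay at -0.85 and 0.10 in IgM and -0.84 and -0.08 in IgG cells, against -2.75 and -3.76 in IgA cells. Tnfrsf17 lay above 0 in IgM (0.60 and 0.13) and IgG cells (0.41 and 0.61), and below it in IgA cells (-0.98 and -1.33). Tmem176b was alike in the 3 isotypes, at 1.29 and 1.29 in IgA, 1.34 and 0.92 in IgM and 1.10 and 0.85 in IgG cells. Slpi was higher in IgM cells as well, at 1.14 and 1.14.

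**Figure D5:**
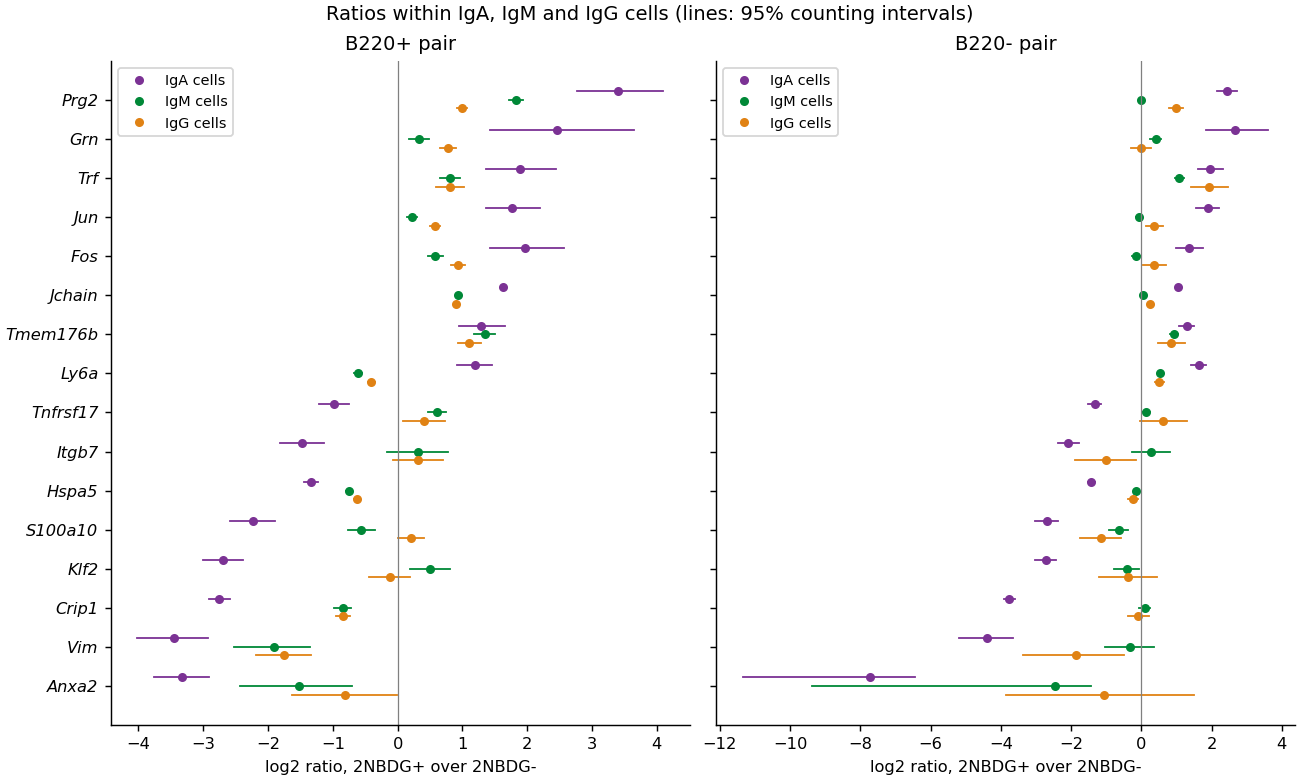
Log2 CPM ratio of 16 genes, 2NBDG+ over 2NBDG-, in IgA (purple), IgM (green) and IgG cells (orange) of the B220+ pair (left) and the B220- pair (right), with exact 95% counting intervals as lines. Itgb7, Klf2 and Crip1 lie farther below 0 in IgA cells (Klf2 at -2.69 and -2.72) than in the others, while Tmem176b is close in all 3.

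Bone marrow B220-2NBDG+ IgA cells (553 cells, 1 library of the same sort) had low levels of the genes that were low in splenic 2NBDG+ cells. Anxa2 was at 1.94 CPM there, Vim at 8.40, Crip1 at 232, Klf2 at 99.8 and Itgb7 at 105 CPM. Prg2 was at 1466 CPM, Trf at 425 and Tmem176b at 924 CPM. Organ and 2NBDG gate cannot be told apart in this library, since no 2NBDG- marrow sample was analysed here.

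The IgA cells of each library carried many different variable genes. A kappa variable gene could be called in 47 of 97 cells in B220+2NBDG+, against 36 of 77 in B220+2NBDG-, with 23 different genes in each and 5 cells for the most frequent. It was called in 62 of 214 B220-2NBDG+ cells (28 genes, 11 cells for the most frequent) and in 109 of 135 B220-2NBDG- cells (37 genes, 14 cells). Leaving out the cells of each library's most frequent kappa gene gave 55 higher and 369 lower genes in the B220+ pair, and 53 and 305 in the B220- pair.

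A further 16 genes divided the libraries along a line no gate follows, with B220+2NBDG- and B220-2NBDG+ on one side, as judged in cells of other isotypes. None of them was called in the same direction in both pairs. They include 9 of the 12 reported genes called in opposite directions in the B220+ and B220- pairs.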

How the data were processed

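The single-cell libraries of sorted plasma cells, 4 from spleen and 1 from bone marrow, were 1 per group. The deposited tables hold raw counts of UMIs as whole numbers per gene and cell, as the values show, for 33456 genes. Cell Ranger 2.1 and GRCm38 are named in the submitters' processing notes, and per the labels' protocols the libraries were made with 10x 3' chemistry, version 2. In the sources used here the authors' annotation and cell filter are not given. Reads shared by near-identical genes can be lost or assigned to either copy.

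From these counts, gene symbols and 266 immunoglobulin genes were taken from GENCODE M21, where 32655 of the identifiers were found. A filter of 500 UMIs, 200 genes and 10% mitochondrial UMIs removed 0 cells. Libraries held 894 to 1296 cells and 9451886 to 15591435 UMIs. UMIs were summed over IgA cells, called as stated in the report from Ighm, Ighg1, Ighg2b, Ighg2c, Ighg3, Ighe and Igha, and divided by the sum outside immunoglobulin genes. IgM and IgG cells were called by the same shares. Ratios have exact conditional binomial intervals and shares have exact Clopper-Pearson intervals, which cover counting error only; for a count of 0 the limit is 3 counts of the total. There was no significance test, and no model with 2NBDG and B220 as terms was fitted, since that would take the B220 gates as replicates. Barcodes shared between splenic libraries numbered 8, none of them an IgA cell in both. Doublets called by Scrublet (scanpy 1.11.5) numbered 0, 0, 6 and 1 among IgA cells (order of groups as in the report) and were kept. Cycling cells were those with 3 or more cell cycle UMIs once thinned to 1000. TMM factors came from edgeR 4.0.16 (R 4.3.3).

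Members, the 22 gene lists, thresholds and names were chosen with earlier results of these data known. The text names up to 15 genes a direction called in both pairs, the 8 highest and 8 lowest of each pair, called list members and a fixed set that includes Slc2a1, Hk2, Ccr9, Ccr10, Sdc1, Jchain and Tnfrsf17. Emp3, Rasgrp2, Jund, Derl3, Syvn1, Xbp1 and Irf4 were named after their values were seen. Of 516 listed genes 514 were in the tables. A result among the opposite calls of the closing section is not reported here. The calculation was tested on simulated counts: of 50 genes changed 3-fold upward, 49 were called in the B220+ pair (1867 genes tested) and 50 in the B220- pair (2131), and of unchanged genes 15 of 1667 and 3 of 1931 were called. These were Poisson draws around a mean shared by both libraries of a pair, with changed genes taken from the better-expressed genes. They held no variation between cells, mice or libraries beyond counting, so the rates do not carry over to the real calls.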

Additional observations from a re-analysis of the deposited data

Results flagged for a closer look

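In 12 reported genes the 2NBDG+ over 2NBDG- ratio of IgA cells was at least 2-fold in the B220+ pair and at least 2-fold the other way in the B220- pair. With 1 library per group the difference was not tested. Given as log2 ratios in the B220+ pair and then in the B220- pair, Nme2 at 2.30 and -2.87, Atp5l at 1.80 and -3.07, Atp5g2 at 2.26 and -2.88 and Hist2h2aa1 at 4.24 and -3.91 were higher and then lower. So were mt-Atp8 at 1.88 and -2.79, Bloc1s1 at 1.78 and -1.06 and Cox16 at 1.39 and -1.94. In the other direction were Rps18-ps3 at -5.03 and 2.74, Rps10-ps1 at -3.07 and 1.10, Gm10263 at -2.73 and 2.95, Rpl7a-ps5 at -3.69 and 3.99 and Gm6133 at -1.65 and 3.25. Of these genes, 9 divide B220+2NBDG- and B220-2NBDG+ cells of other isotypes at least 2-fold from the other 3 libraries, marrow included. Gm10263, Bloc1s1 and Cox16 did not meet that rule, though Gm10263 lay in the same direction in IgM cells, at -1.84 and 2.80 log2, and in IgG cells, at -1.99 and 3.51. Several are pseudogenes or short genes whose reads can be shared with near-identical copies. The part of library preparation in these ratios was not tested.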

How the results depend on the processing

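Counts of called genes moved with the scaling and the filter, given here as higher then lower genes. Scaled to all UMIs they were 11 and 1116 in the B220+ pair, 15 (higher) in the B220- pair, and 5 and 227 in both pairs. Without Jchain they were 129 and 163, 183 and 151, and 40 and 50. With TMM factors they were 115 and 183, 123 and 161, and 37 and 58. With median-of-ratios factors they were 107 and 195, 119 and 162, and 37 and 60. A minimum of 60 UMIs gave 27 and 192 in the B220+ pair, 193 lower in the B220- pair, and 10 and 81 in both. No filter gave 343 and 1269, 344 and 1464, and 67 and 414. At least 90% Igha gave 32 higher in the B220+ pair and 10 higher in both, and an IgA share of 4.09% in B220+2NBDG+. Without cycling cells 232 were lower in the B220+ pair. An alternative added after seeing the data left out both cycling cells and Jchain and gave 130 and 114, 185 and 142, and 38 and 46. Under it H2afz, Pcna, Tuba1b and Ube2s turned to 0.14, 0.21, 0.60 and 0.27 log2 in the B220+ pair, and Tuba1b was at 0.21 without cycling cells alone; these settings leave out 10 B220+2NBDG- and 5 B220-2NBDG- cells, and the cause was not tested.

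Of the 19 higher and 143 lower genes called in both pairs, 5 and 25 were called in both under all 18 alternatives. Without thinning, shares of IgA cells with a UMI were 63.6% and 47.4% for Anxa2 in B220+2NBDG- and B220-2NBDG-. For Vim they were 12.4%, 64.9%, 7.48% and 53.3%, and for Prg2 76.3%, 19.5%, 79.4% and 44.4%, with the 2NBDG+ library of each gate first and the B220+ gate before the B220- gate. Of 5004 recomputed ratios of named genes, 110 changed sign, 5 of them in genes called in that pair. Besides these 5, 561 left the counting interval of the first value. Of 792 recomputed list medians, 337 shifted past a set margin and 69 changed sign. No paired analysis was run because each group was 1 library, and leaving out a replicate would empty a group. Genes under 30 UMIs in the higher library could not be compared at this depth.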
